A study of Mus musculus with 2 samples.

Results

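The 10 genes described here are known from severed and regrowing axons, and their levels were examined in single nuclei of the mouse thalamus. They are Atf3, Sox11, Klf6, Gap43, Stmn2, Stmn4, Sprr1a, Flrt3, Ecel1 and Tnfrsf12a. They were chosen by name, as the 10 rows of these symbols among the 32285 gene rows of each count table, and not by a cut-off on a value. Earlier results of these data were known when they were chosen. Thalamus of the operated side was collected on day 21 from female C57BL/6J mice that had been 3 months old at surgery. One group had a sham operation and the other a cortical ablation injury (CAI), in which cortex is removed by suction, while sham mice had a burr hole alone. Each group was 1 library made from the pooled nuclei of 4 mice, so there was 1 replicate per group, the mice of a pool cannot be told apart, and no test between the groups could be made. All intervals are 95% intervals of counting error, exact except for differences between classes, and none of them covers the spread between mice.

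When an axon is cut, a peripheral sensory or motor neuron switches on transcription factors such as ATF3 and SOX11, and these are followed by growth cone and cytoskeletal proteins such as GAP43 and the stathmins. Neurons of the central nervous system mount this programme weakly or for a short time. Thalamic relay neurons send their axons to the cortex, and removing a part of the cortex takes the target of some of them away, whereas habenular neurons project to the midbrain and neurons of the reticular nucleus project within the thalamus. The comparison asks where these genes differed between the libraries, in relay neurons and in habenular and GABAergic neurons. Which relay nuclei had lost their target was not measured.

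The tables held 16390 sham and 21828 injury barcodes, of which 16373 and 21777 nuclei were kept, with a median of 7190 and 6810 unique molecular identifiers (UMIs) per nucleus. The libraries shared 101 barcode sequences. Nuclei were classed by summed UMIs of marker genes. Relay nuclei carried at least 2 UMIs of C6, Tspear and Tll1 (the C6 set) or of Adgrf5, Abhd12b and Zfp385c (the Adgrf5 set). There were 3756 sham and 3825 injury relay nuclei of either set, or 22.9% (22.3 to 23.6%) and 17.6% (17.1 to 18.1%) of kept nuclei. Of these, 1776 and 1726 met the C6 set only and 1087 and 1182 the Adgrf5 set only. The study reported a loss of thalamic neurons after CAI, and only nuclei still present could be measured. The part of such a loss in the lower share was not tested. Habenular nuclei numbered 704 and 999, reticular-like GABAergic nuclei 668 and 1068, and other GABAergic nuclei 876 and 1627. Of markers that the gates did not use, Prkcd stood at 292 and 299 UMIs per 1000000 UMIs (CPM) in sham and injury relay nuclei against 9.61 and 14.4 CPM in habenular nuclei, Tac2 at 50.6 and 52.2 CPM in habenular nuclei, and Slc32a1 at 25.3 and 21.0 CPM in reticular-like nuclei. Prkcd stood at 144 and 146 CPM in C6 relay, 378 and 396 CPM in Adgrf5 relay and 78.1 and 83.3 CPM in glutamatergic nuclei of no other gate. Of further relay markers, Ramp3 and Rora were also higher in relay than in habenular nuclei. Tcf7l2 separated them less, at 680 and 690 CPM in relay against 593 and 588 CPM in habenular nuclei. Other GABAergic nuclei were a mix of regions, led by genes such as Hdc, Pax3 and Gata3. No gate was met by 34.2% of sham and 31.5% of injury nuclei. Oligodendrocyte-like nuclei (995 sham and 2363 injury nuclei, with a median of 1688 and 1792 UMIs against 11286.5 and 11844 in relay nuclei) served as the class for free RNA of neuronal genes. As they are shallower, free RNA weighs more in their CPM and thinned shares than in those of neurons, so unthinned shares of nuclei are given too. Here a level is the CPM of the UMIs summed over a class, and a difference is the log2 of injury over sham. A gene was compared where it had at least 50 UMIs over both libraries in a class.

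One of the 10 genes, Ecel1, was past 1.5-fold higher in relay nuclei of the injury library, on 31 sham and 60 injury UMIs. Among the transcription factors, Atf3 stayed near 0 UMIs and Sox11 and Klf6 were lower than in the sham library. Gap43 and Stmn2 were abundant in both libraries and slightly lower in the injury library. Sprr1a was not found in relay nuclei at all. In relay nuclei of either set, 1 of the 8 genes that could be compared, Ecel1, lay past 1.5-fold. Over all 16877 genes compared in those nuclei, 6.13% lay past 1.5-fold in one direction or the other. The median difference of the 8 genes was -0.12, against -0.01 over all genes compared. Of the 8, 5 had an interval wholly below 0 and 1 wholly above, and of all 16877 genes 3865 had one below and 3294 one above. An interval leaves out 0 more easily for a gene with many UMIs, and these counts were not matched for UMIs. The corresponding share of all genes past 1.5-fold was 5.2% in C6 relay, 6.83% in Adgrf5 relay, 5.89% in habenular, 6.33% in reticular-like GABAergic and 10.3% in other GABAergic nuclei, and in each of these 5 classes 0 of the 6 or 7 genes compared lay past it. Their medians there were -0.10, -0.14, -0.07, -0.08 and -0.02, beside medians of -0.00, -0.03, -0.01, -0.01 and -0.03 over all genes.

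**Figure D1:**
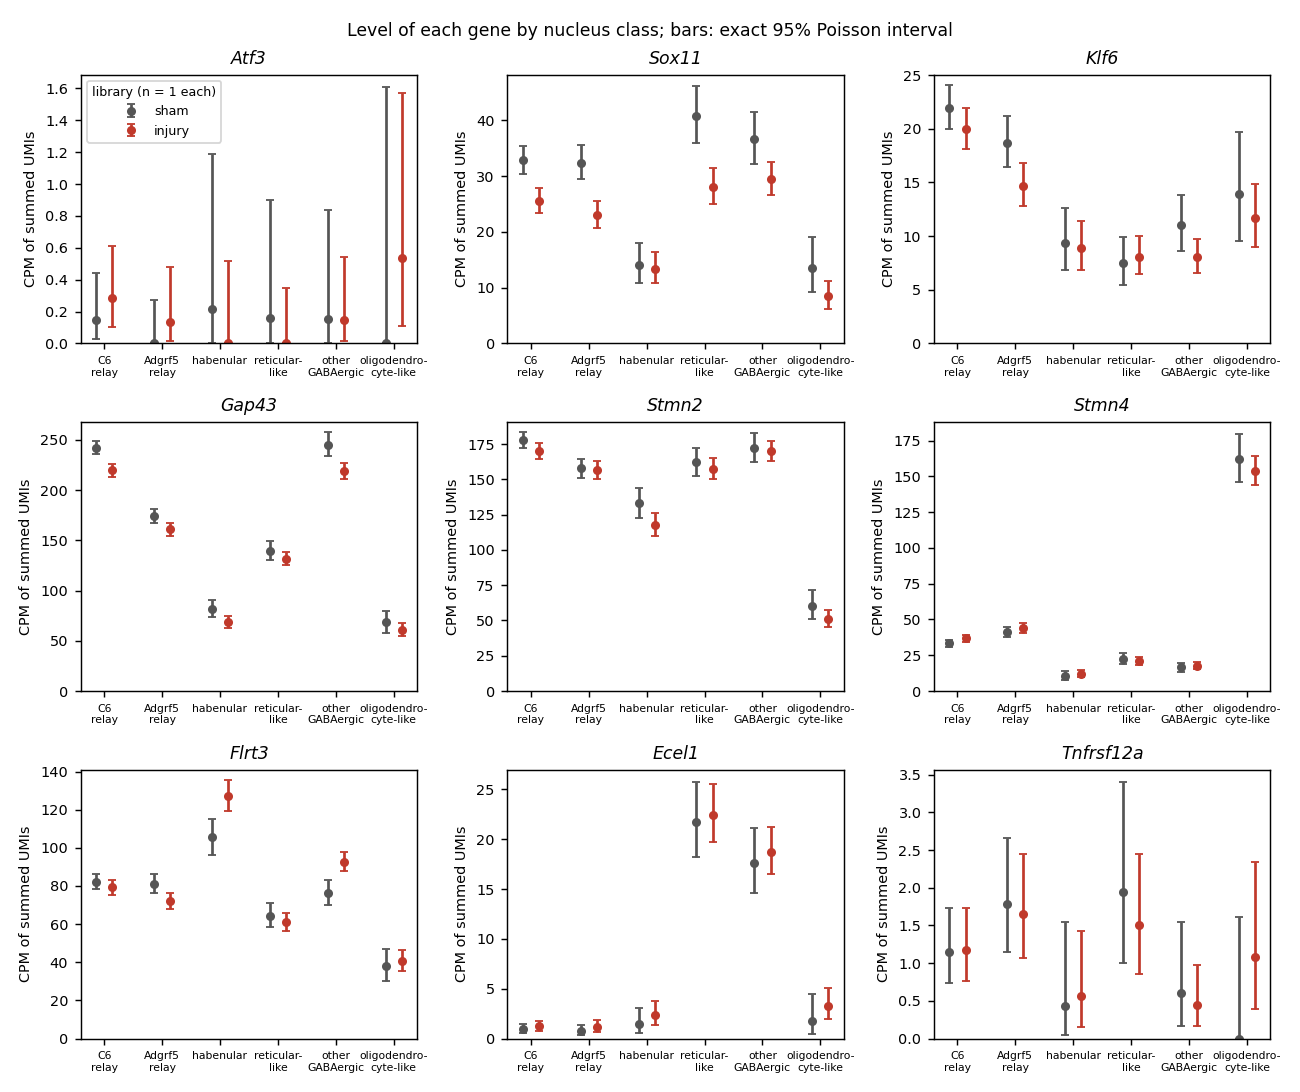
Level of 9 genes in CPM of summed UMIs (linear vertical axes from 0) in 5 neuron classes and in oligodendrocyte-like nuclei, for the sham (grey) and injury (red) library, with exact 95% Poisson intervals as bars. Sprr1a, with 1 UMI in all, is not drawn. Gap43 spans 68.4 to 245 CPM across the neuron classes, with habenular nuclei lowest and other GABAergic and C6 relay nuclei highest in both libraries.

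**Figure D2:**
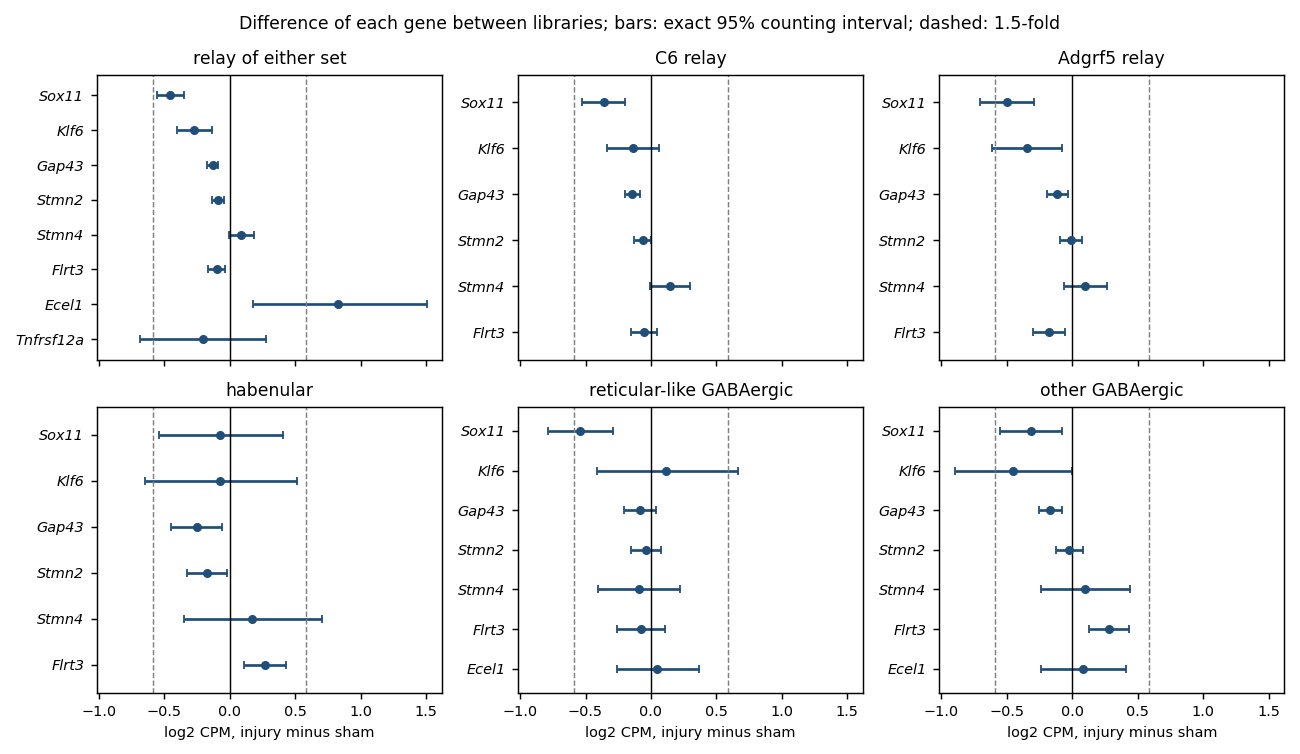
Difference between libraries on the log2 scale (horizontal axes) of each gene with at least 50 UMIs, by class, with exact 95% counting intervals as bars and 1.5-fold as dashed lines. Ecel1 in relay nuclei of either set is the single point past 1.5-fold.

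ATF3, a stress-induced transcription factor and the most widely used marker of an axotomised neuron, was almost undetected. In relay nuclei of either set, there were 5 UMIs in 5 nuclei of the sham library and 8 UMIs in 6 nuclei of the injury library, or 0.107 and 0.157 CPM. As a share this was 0.133% of sham nuclei (0.043 to 0.31%) and 0.157% of injury nuclei (0.058 to 0.34%). Of oligodendrocyte-like nuclei, at a lower depth, 0 of 995 sham (0 to 0.37%) and 0.127% of injury nuclei held a UMI. Whether these UMIs were free RNA was not tested. The 2 intervals of relay nuclei overlapped, and a rise of Atf3 in relay neurons was not detectable at this depth. No relay nucleus held more than 2 UMIs. Over all kept nuclei the sham library had 20 UMIs of Atf3, in 18 nuclei, and the injury library had 44, in 38 nuclei. Of these, 9 UMIs in 7 injury nuclei and 0 in the sham library came from nuclei gated on microglial genes, a gate of 167 sham and 400 injury nuclei that also carried neuronal Syt1 at 2764 and 2305 CPM and is therefore not called microglia. The 6 injury relay nuclei with Atf3 held 21 UMIs of Gap43, or 192 CPM (119 to 293), which overlaps the level of all injury relay nuclei, 185 CPM. Atf3 lies on chromosome 1 (chr1:191170296-191218039, minus strand, GRCm38). Its RefSeq promoter window, 250 bases before to 50 after the annotated start, is shown because the gene was near 0 in both libraries. The start that RefSeq gives lies inside this longer gene record.
Atf3 (chr1:191183284-191183583, minus strand, GRCm38.p6): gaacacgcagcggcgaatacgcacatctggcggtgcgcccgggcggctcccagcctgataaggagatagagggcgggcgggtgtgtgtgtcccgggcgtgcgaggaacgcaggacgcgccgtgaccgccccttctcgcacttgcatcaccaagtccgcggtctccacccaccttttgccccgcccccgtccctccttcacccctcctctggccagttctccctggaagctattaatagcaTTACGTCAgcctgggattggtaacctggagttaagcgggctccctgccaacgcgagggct
The capitals mark the letters TTACGTCA, a variant of the cAMP response element (CRE) that proteins of the ATF and CREB family bind. They begin 10 bases before the start, and 0.499% of the 32851 windows in the table hold them on either strand.

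Sox11, a developmental factor that is induced in sensory neurons during axon regrowth, had the largest difference after Ecel1 among the genes compared in relay nuclei. Relay nuclei of either set held 1650 sham UMIs and 1314 injury UMIs, or 35.3 and 25.8 CPM, a difference of -0.45 (-0.56 to -0.35). It was lower in both sets, at -0.36 (-0.53 to -0.20) in C6 relay and -0.49 (-0.70 to -0.29) in Adgrf5 relay nuclei. Sox11 was lower in GABAergic nuclei of the injury library as well. In reticular-like nuclei it stood at 40.9 and 28.1 CPM, a difference of -0.54 (-0.79 to -0.29), and in other GABAergic nuclei it stood at 36.7 and 29.5 CPM, a difference of -0.31 (-0.55 to -0.08). Habenular nuclei had 14.1 and 13.4 CPM, about the level of oligodendrocyte-like nuclei at 13.5 and 8.43 CPM, with a difference of -0.07 (-0.54 to 0.40). With each nucleus drawn down to 2000 UMIs, 6.81% of sham relay nuclei (6.02 to 7.67%) and 4.90% of injury relay nuclei (4.24 to 5.63%) held a UMI of Sox11, against 3.07 and 1.52% of oligodendrocyte-like nuclei. Without thinning the shares of relay nuclei were 30.1 and 25.8%. The difference in C6 relay nuclei was -0.04 after thinning, and that in reticular-like nuclei was -0.19 after thinning and -0.16 without nuclei that hold a glial UMI. In other GABAergic nuclei it was -0.82 without nuclei that hold a glial UMI, and in Adgrf5 relay nuclei it ranged from -0.63 to -0.43 over the 8 alternatives.

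Sox11 is a single-exon gene spanning 8311 bases, and short genes were more often lower than higher in the injury library. In relay nuclei of either set the 80 ribosomal protein genes had a median difference of -0.49, with 76 intervals below 0 and 1 above. The 2854 protein-coding genes spanning under 10000 bases had a median of -0.19, with 1114 intervals below 0 and 131 above. Of these short genes, 17.6% lay at or below the value of Sox11, against 5.81% of all genes. Immediate early genes had a median of -0.69 over the 8 compared, of which 5 had an interval below 0, while Junb, Ier2 and Nr4a1, the last at 0.07, had intervals that spanned 0. The part that a general shift of short transcripts has in the Sox11 difference was not tested. Gap43 was alike in relay nuclei with and without a UMI of Sox11. It stood at 204 CPM in the 1130 sham nuclei with Sox11 and 202 CPM in the 2626 without it, and in the injury library at 189 and 184 CPM, with overlapping intervals. Flrt3 stood lower in relay nuclei with Sox11 than in those without it in both libraries. In the injury library it was at 69.9 CPM (65.9 to 74.2) against 78.9 CPM (76.0 to 81.9). In the sham library it was at 77.9 CPM (73.8 to 82.2) against 83.7 CPM (80.5 to 87.1), with overlapping intervals. Whether this gap differed between the libraries was not tested. Nuclei with Sox11 were deeper in both libraries, with a median of 13676 against 10318 UMIs in the sham and 14336 against 11013 in the injury library. The RefSeq window of Sox11 is shown since its difference is larger than that of Klf6, while Atf3 had too few UMIs to be compared.
Sox11 (chr12:27342669-27342968, minus strand, GRCm38.p6): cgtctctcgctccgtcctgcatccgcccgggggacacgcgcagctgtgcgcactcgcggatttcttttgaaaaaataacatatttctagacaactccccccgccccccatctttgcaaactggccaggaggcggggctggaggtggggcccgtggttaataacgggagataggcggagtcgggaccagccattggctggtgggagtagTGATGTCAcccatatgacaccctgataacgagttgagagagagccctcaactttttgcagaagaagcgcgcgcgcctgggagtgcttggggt
The capitals mark TGATGTCA, the reverse of the CRE variant TGACATCA, 42 bases before the start. Windows were found for 7 of the 10 genes, and 4 of these 7 (Sox11, Klf6, Sprr1a and Flrt3) hold TGACATCA on one of the strands, against 3.62% of all windows. Both CRE variants were chosen after the windows had been read, and a match is a description of sequence, not a binding site. The consensus CRE, TGACGTCA, was in 0 of the 7 and in 1.79% of all windows.

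KLF6 is a zinc finger factor that promotes neurite growth in several injury models. Klf6 UMIs numbered 963 and 871 in relay nuclei of either set, or 20.6 and 17.1 CPM, a difference of -0.27 (-0.40 to -0.14). It stood at 18.7 and 14.7 CPM in Adgrf5 relay nuclei, a difference of -0.35 (-0.61 to -0.08), and at 22.0 and 19.96 CPM in C6 relay nuclei, where the interval of -0.33 to 0.06 spanned 0. In habenular, reticular-like and other GABAergic nuclei its level was between 7.46 and 11.0 CPM, below the 13.9 and 11.7 CPM of oligodendrocyte-like nuclei. The difference in other GABAergic nuclei, on 73 and 107 UMIs, was -0.45 (-0.895 to -0.003), and it ranged from -0.51 to -0.05 over the alternatives tried. Without thinning, 5.82 and 5.81% of habenular, 6.29 and 7.21% of reticular-like and 7.19 and 6.15% of other GABAergic nuclei held a UMI of Klf6, against 3.12 and 2.67% of oligodendrocyte-like and 20.7 and 18.5% of relay nuclei. After thinning these 3 classes had shares of 1.20 to 2.50%, against 2.51 and 1.93% of oligodendrocyte-like nuclei and 4.43 and 3.04% of relay nuclei. Klf6 spans 8913 bases and is, like Sox11, among the short genes described above. So are Ecel1, at 8867 bases, which was higher in relay nuclei, and Tnfrsf12a, at 2024 bases, whose interval there spanned 0. Sprr1a, at 1944 bases, was too rare to be compared.

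**Figure D3:**
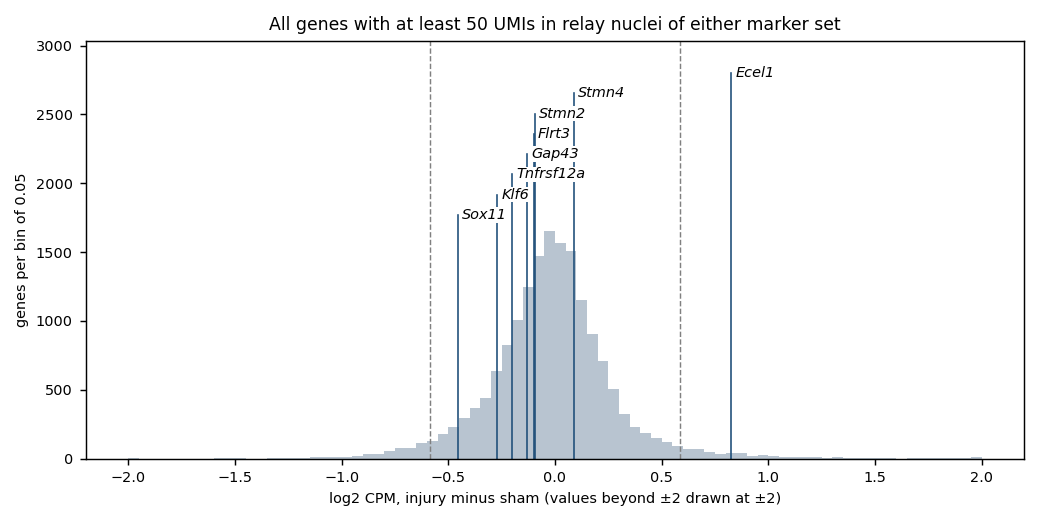
Number of genes (vertical axis) by difference between libraries on the log2 scale (horizontal axis, bins of 0.05) for all genes with at least 50 UMIs in relay nuclei of either set, with 8 of the 10 genes marked and 1.5-fold as dashed lines. Sox11 at -0.45 and Klf6 at -0.27 lie on the left flank, Ecel1 at 0.83 on the right.

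GAP43, a membrane protein of growth cones and of adult plastic terminals, was present in relay nuclei of both libraries. Gap43 UMIs numbered 9482 and 9449, or 203 and 185 CPM, a difference of -0.13 (-0.17 to -0.09), and 80.6% of sham and 77.6% of injury relay nuclei held at least 1. C6 relay nuclei had 242 and 220 CPM, and Adgrf5 relay nuclei 174 and 161 CPM. Within either library the intervals of the 2 relay sets did not overlap. Other GABAergic nuclei had about as much Gap43 as C6 relay nuclei, at 245 and 219 CPM, and reticular-like nuclei had 140 and 132 CPM. The interval lay below 0 in all of these classes but the reticular-like one, where the difference was -0.08 (-0.21 to 0.04). Over the 8 alternatives the difference ranged from -0.22 to -0.03 in C6 relay and from -0.20 to -0.06 in Adgrf5 relay nuclei. In other GABAergic nuclei it ranged from -0.16 to -0.05.

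Habenular nuclei held Gap43 in another way than the other neuron classes compared. Their level was 81.6 and 68.4 CPM, a difference of -0.25 (-0.45 to -0.06) that was -0.01 with the gate at 3 UMIs and -0.65 without nuclei holding a glial UMI. This level was near the 68.4 and 61.0 CPM of oligodendrocyte-like nuclei, and after thinning 8.53 and 7.25% of them held a UMI, against 9.22 and 8.62% of oligodendrocyte-like nuclei. Without thinning these shares were 18.5 and 18.9% against 7.74 and 8.63%. The UMIs were not spread evenly. The 10% of habenular nuclei with most Gap43 held 82.5% of its sham UMIs and 79.6% of its injury UMIs, against 32.0 and 33.0% in relay nuclei of either set. In 19 sham and 24 injury habenular nuclei there were 5 or more UMIs, up to 15 and 18 in a single nucleus. Such nuclei were found among those with Chat and Slc5a7, genes of cholinergic neurons, at 2 or more UMIs (6 sham and 10 injury nuclei) and among the others (13 and 14 nuclei). Stmn2 and Flrt3 were less uneven in habenular nuclei, where the 10% of nuclei with most of either gene held 43.2 and 43.1% of Stmn2 and 40.3 and 39.3% of Flrt3 UMIs. In oligodendrocyte-like nuclei Gap43 was concentrated as well, as 7.74 and 8.63% of nuclei held all its UMIs, with up to 10 and 13 in a single nucleus. The concentration in habenular nuclei was seen in both libraries and does not separate sham from injury.

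**Figure D4:**
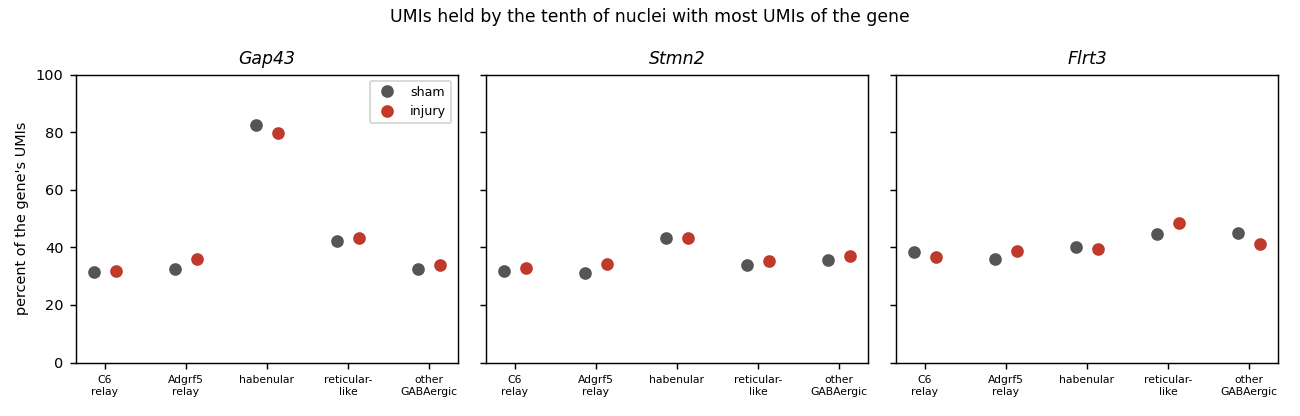
Percent of a gene's UMIs (vertical axis, 0 to 100) held by the 10% of nuclei with most UMIs of that gene, for Gap43, Stmn2 and Flrt3 in 5 neuron classes of the sham (grey) and injury (red) library. Gap43 in habenular nuclei stands near 80% in both libraries, against 31.3 to 43.3% in the other classes.

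Stmn2 and Stmn4 encode stathmins, which regulate microtubule assembly, and Stmn2 is a marker of neurons that extend or maintain axons. Stmn2 UMIs numbered 7777 and 7958 in relay nuclei of either set, or 166 and 156 CPM, a difference of -0.09 (-0.14 to -0.05). In nuclei that met both relay sets it stood at 158 and 135 CPM, a difference of -0.23 (-0.32 to -0.14). In C6 relay nuclei it stood at 178 and 170 CPM, with an interval of -0.13 to 0.00, and in Adgrf5 relay nuclei at 158 and 157 CPM, with an interval of -0.09 to 0.08. Habenular nuclei had 133 and 118 CPM, a difference of -0.17 (-0.32 to -0.02). Reticular-like and other GABAergic nuclei, at 162 and 158 CPM and 172 and 170 CPM, had intervals that spanned 0.

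Stmn4 was the one cytoskeletal gene of the 10 with a positive difference in relay nuclei. Its UMIs numbered 1771 and 2055, or 37.9 and 40.3 CPM, a difference of 0.09 (-0.00 to 0.18). The interval spanned 0, as it did in C6 relay (0.15, -0.00 to 0.30) and Adgrf5 relay nuclei (0.10, -0.06 to 0.27). Habenular and GABAergic nuclei had 10.7 to 22.5 CPM. The highest level of Stmn4 was not in neurons but in oligodendrocyte-like nuclei, at 162 and 154 CPM, and a UMI was found there in 26.8 and 27.4% of thinned nuclei. Oligodendrocyte markers were higher in injury relay nuclei: 7 of 7 markers (Mog, Mag, Ermn, Ugt8a, Prr5l, Mobp and Mbp), with a summed level of 41.4 CPM in the sham and 76.5 CPM in the injury library and none at 0. This was not particular to relay nuclei. The summed level was 34.4 and 86.3 CPM in habenular nuclei (5 of 7 markers higher). It was 112 and 188 CPM in reticular-like (6 of 7) and 69.2 and 148 CPM in other GABAergic nuclei (7 of 7). Without nuclei that hold a UMI of a glial marker, the difference of Stmn4 in relay nuclei was 0.12. Astrocyte-like nuclei had 3 and 11 UMIs of Stmn4, or 7.56 and 8.999 CPM, and the level in habenular nuclei was close to these.

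SPRR1A, a small proline-rich protein of skin that injured peripheral neurons express strongly, had 0 UMIs in 3756 sham and 3825 injury relay nuclei, which allows up to 0.0799 and 0.0784% of nuclei with a UMI. Over all kept nuclei the sole UMI of Sprr1a lay in 1 injury reticular-like nucleus. The gene is on chromosome 3 (chr3:92483952-92485895, minus strand), and its RefSeq window is shown since it is the one of the 7 windows with the binding letters of AP-1, the paired factor of Jun and Fos proteins.
Sprr1a (chr3:92485832-92486131, minus strand, GRCm38.p6): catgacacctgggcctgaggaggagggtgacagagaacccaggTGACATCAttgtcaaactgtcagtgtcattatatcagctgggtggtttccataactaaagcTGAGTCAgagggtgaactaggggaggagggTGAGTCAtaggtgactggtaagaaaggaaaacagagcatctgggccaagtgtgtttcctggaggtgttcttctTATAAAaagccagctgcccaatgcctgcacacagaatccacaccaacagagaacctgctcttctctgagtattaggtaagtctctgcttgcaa
The capitals mark, in order, the CRE variant TGACATCA, 2 copies of the AP-1 letters as they read from the other strand, the first of them 146 bases before the start, and the TATA box letters TATAAA. On either strand, 5.20% of all windows hold the AP-1 letters (TGACTCA) and 13.6% hold those of the TATA box.

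Flrt3 encodes a leucine-rich adhesion protein that binds latrophilin and UNC5 receptors and is induced in injured sensory neurons. Among the 10 genes it alone had intervals above 0 in some of the neuron classes compared and below 0 in another. Habenular nuclei had 494 sham UMIs and 911 injury UMIs, or 106 and 127 CPM, a difference of 0.27 (0.11 to 0.43). Other GABAergic nuclei had 76.3 and 92.7 CPM, a difference of 0.28 (0.13 to 0.43). In Adgrf5 relay nuclei it was lower instead, at 81.3 and 72.0 CPM, a difference of -0.18 (-0.30 to -0.05), but the value was 0.03 after thinning to 2000 UMIs. Relay nuclei of either set held 3815 and 3883 UMIs, or 81.6 and 76.1 CPM, a difference of -0.10 (-0.17 to -0.04) that ranged from -0.17 to -0.06 over 8 alternatives, thinning included. C6 relay nuclei, at 82.1 and 79.3 CPM, and reticular-like nuclei, at 64.5 and 61.1 CPM, had intervals that spanned 0. Of 69 differences between 2 classes, for genes with at least 10 UMIs in each library of both classes, 6 had an interval without 0, and all 6 were of Flrt3. Adgrf5 relay minus habenular nuclei, for one, was -0.44 (-0.64 to -0.25). These intervals cover counting error only and were not adjusted for their number. The same count over all genes was not made, so it has no background here.

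In habenular nuclei with Chat and Slc5a7 at 2 or more UMIs Flrt3 stood at 128 CPM (113 to 145) in the sham and 138 CPM (126 to 151) in the injury library, with overlapping intervals. In the other habenular nuclei it stood at 89.5 CPM (78.7 to 101) and 117 CPM (106 to 128), without overlap. Whether the difference between libraries was unlike in these parts of the habenular nuclei was not tested. After thinning, 19.4% of sham (16.5 to 22.6%) and 24.1% of injury habenular nuclei (21.5 to 26.9%) held a UMI, and these intervals overlapped. Oligodendrocyte-like nuclei had 37.9 and 40.7 CPM of Flrt3, and 4.47 and 6.998% of them held a UMI after thinning. In other GABAergic nuclei the difference was 0.12 after thinning. Flrt3 (chr2:140650914-140671469, minus strand) overlaps Macrod2 on the other strand, and whether the counting used the strand is not given in the sources used here. Macrod2 differed by 0.06 in habenular, -0.01 in other GABAergic and -0.01 in Adgrf5 relay nuclei. Other GABAergic nuclei mix regions and had the largest share of genes past 1.5-fold. They were 5.35% of sham and 7.47% of injury nuclei, with Prkcd at 7.99 and 37.5 CPM and Tcf7l2 at 181 and 127 CPM. The part that their makeup has in the Flrt3 difference, or in those of other genes in this class, was not tested.

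Ecel1, a neuronal membrane endopeptidase-like protein that is induced after nerve injury, was mainly a gene of GABAergic nuclei. Reticular-like nuclei had 21.7 and 22.5 CPM and other GABAergic nuclei 17.6 and 18.7 CPM. Neither differed between the libraries beyond counting error, with differences of 0.05 (-0.26 to 0.37) and 0.09 (-0.24 to 0.42). Relay nuclei of either set held 31 and 60 UMIs, or 0.66 and 1.18 CPM, a difference of 0.83 (0.178 to 1.501). Among values on at least 50 UMIs, this is the one past 1.5-fold in relay nuclei of either set and the 5 classes. It was 2.67 after thinning to 2000 UMIs, which leaves few UMIs. The level lay below the 1.74 and 3.23 CPM of oligodendrocyte-like nuclei. As a share, 0.72% of sham (0.47 to 1.04%) and 1.31% of injury relay nuclei (0.97 to 1.72%) held a UMI, against 0.30% (0.06 to 0.88%) and 0.72% (0.42 to 1.15%) of oligodendrocyte-like nuclei, so that the intervals overlapped in both libraries. Within the C6 and Adgrf5 sets the intervals spanned 0, and in nuclei that met both sets there were 2 and 16 UMIs. GABAergic markers also stood higher in injury relay nuclei, with 3 of 3 (Gad1, Gad2 and Slc32a1) at a summed level of 4.43 CPM in the sham and 6.78 CPM in the injury library, and none at 0. The same sum was 8.54 and 10.3 CPM in habenular (2 of 3 higher) and 8.73 and 11.1 CPM in other glutamatergic nuclei (3 of 3). It was lower in injury nuclei of both GABAergic classes. The part of these markers in the Ecel1 difference was not tested.

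TNFRSF12A, the receptor of the cytokine TWEAK and a promoter of neurite growth in culture, was rare in all classes. Relay nuclei of either set held 77 and 73 UMIs, or 1.65 and 1.43 CPM, a difference of -0.20 (-0.69 to 0.28) that was -1.35 after thinning. No neuron class of the 5 had 50 UMIs, and their levels lay between 0.427 and 1.95 CPM. A UMI was found in 1.92% of sham (1.503 to 2.408%) and 1.83% of injury relay nuclei (1.43 to 2.31%), against 0 of 995 sham and 0.25% of injury oligodendrocyte-like nuclei (0.09 to 0.55%) at their lower depth.

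A wider list of 56 other axon injury and growth genes was set beside the 10, of which 55 were measured. The symbol Ddit3 belongs to 2 overlapping records and was left out. In relay nuclei of either set 50 could be compared, with a median difference of -0.07 and with 0 past 1.5-fold higher and 3 past it lower. These 3, named after their values were seen, were Atf4 at -0.73, Gal at -0.75 and Hspb1 at -0.73, of which Gal had 40 sham and 26 injury UMIs and Hspb1 had 64 and 42. The background over all genes, in either direction, is the 6.13% given above. Of the 50, 8 had an interval above 0 and 20 below, beside 3294 above and 3865 below of all 16877 genes, again not matched for UMIs. Growth cone and cytoskeleton genes had a median of -0.10 over 14 genes, transcription factors -0.04 over 11, injury kinases and axon breakdown genes 0.08 over 7, and genes that brake growth 0.02 over 5. Secreted factors had a median of -0.33 over 4 genes, and surface and stress genes -0.09 over 9. Each role was represented by few genes.

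The single genes named next were picked because their interval left out 0, as the 2 highest and 2 lowest of a class. Such intervals were common. Of all 14970 genes compared in C6 relay nuclei, 2347 had one above 0 and 2436 one below. In Adgrf5 relay nuclei 1936 of 13820 genes had one above 0 and 2450 one below. The intervals were not adjusted for the number of genes. Protein-coding genes spanning under 10000 bases had medians of -0.17 in C6 relay, -0.22 in Adgrf5 relay and -0.13 in other GABAergic nuclei. The part of this shift in the lower values of single genes was not tested. Atf4, a factor of the integrated stress response, stood at 12.1 and 6.59 CPM in C6 relay nuclei, a difference of -0.88 (-1.19 to -0.57), and at 9.68 and 6.36 CPM in Adgrf5 relay nuclei, a difference of -0.61 (-1.002 to -0.214). Tuba1a, an alpha-tubulin that regrowing axons use, was 28.7 and 19.0 CPM in C6 relay nuclei, a difference of -0.60 (-0.78 to -0.41). Stmn1, a further stathmin, differed by -0.58 (-0.78 to -0.38) in Adgrf5 relay and by -0.60 (-0.84 to -0.36) in other GABAergic nuclei. Jun, a factor that drives the response to axotomy, was 4.62 and 6.49 CPM in Adgrf5 relay nuclei, a difference of 0.49 (0.02 to 0.97), while its interval spanned 0 in C6 relay nuclei and in relay nuclei of either set. Lingo1, a co-receptor of the Nogo receptor that restrains growth, stood at 129 and 174 CPM in Adgrf5 relay nuclei, a difference of 0.43 (0.35 to 0.52). It differed by 0.26 (0.18 to 0.34) in C6 relay nuclei. Mapt, which encodes the microtubule protein tau, differed by 0.13 (0.09 to 0.18) in C6 relay nuclei.

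Outside relay nuclei Bdnf, Adcyap1, Csf1 and Mapk10 were named by the same rule. Of all genes compared, 1072 had an interval above 0 and 1211 below of 12090 in habenular nuclei. These numbers were 1321 and 1489 of 13036 in reticular-like and 1944 and 2364 of 13911 in other GABAergic nuclei. Bdnf, a neurotrophin, was lower in habenular (-0.77, -1.33 to -0.21), reticular-like (-0.81, -1.34 to -0.28) and other GABAergic nuclei (-1.05, -1.50 to -0.61). Adcyap1, which encodes the peptide PACAP, stood at 17.9 and 8.38 CPM in habenular nuclei, a difference of -1.10 (-1.60 to -0.60). Csf1, a growth factor of microglia, was higher in reticular-like nuclei, at 4.21 and 7.43 CPM on 26 and 79 UMIs (0.82, 0.16 to 1.52). In other GABAergic nuclei it stood at 3.77 and 6.32 CPM on 25 and 84 UMIs (0.74, 0.09 to 1.45). Summed oligodendrocyte markers were also higher in both classes, as given above, and their part in the Csf1 differences was not tested. Mapk10, which encodes the neuronal JNK3 kinase, was slightly higher in habenular, reticular-like and other GABAergic nuclei, with differences of 0.10, 0.11 and 0.09. Tuba1a was lower in reticular-like nuclei, with a difference of -0.35 (-0.69 to -0.01).

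**Figure D5:**
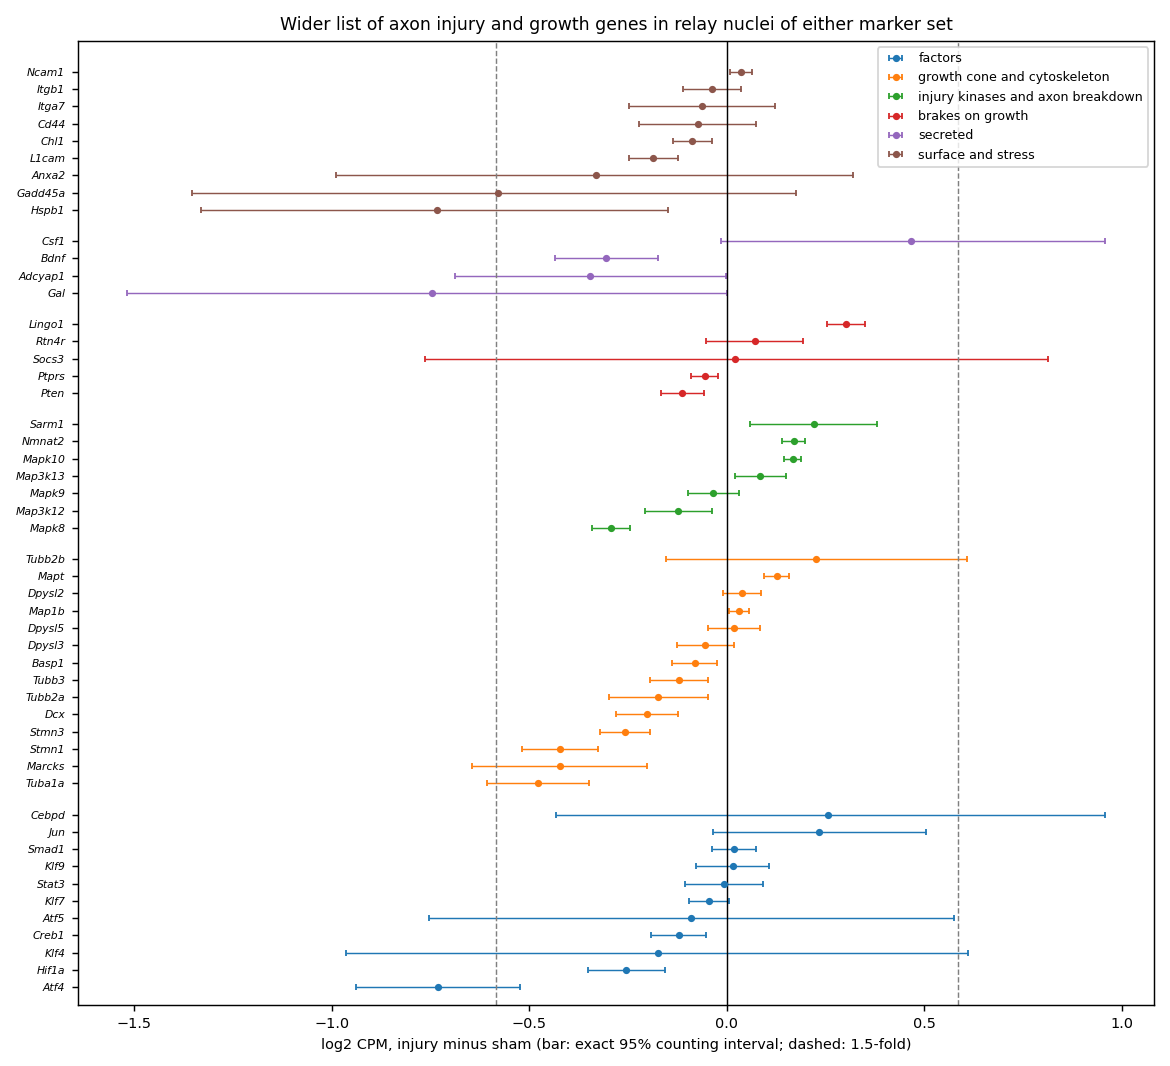
Difference between libraries on the log2 scale (horizontal axis) of the 50 genes of the wider list with at least 50 UMIs in relay nuclei of either set, coloured by role, with exact 95% counting intervals as bars and 1.5-fold as dashed lines. Of these, 3 lie past the lower line and 0 past the upper one, and Lingo1 has a narrow interval above 0.

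Across 11 classes and both libraries (22 points of log2 level, which share libraries and depth), the gene most like Gap43 in its levels was B230209E15Rik (Pearson r = 0.95), followed by L1cam (r = 0.94), an axonal adhesion molecule. For Stmn2 these were Rian and B830012L14Rik (r = 0.98 for both), and for Stmn4 they were Synj2 (r = 0.94) and Pak1 (r = 0.93). Ecel1 was most like Dlx6os1 (r = 0.92), a transcript of the Dlx5 and Dlx6 locus of GABAergic neurons, and Flrt3 was most like Cdh8 (r = 0.90). Sox11 was most like Pja2 (r = 0.89) and Klf6 like Gm14508 (r = 0.92). Tnfrsf12a was most like Irf9 (r = 0.80). These are likenesses of level over classes, given as a description.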

How the data were processed

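Nuclei of the thalamus were sorted, pooled per group and processed by the authors with the 10x 3′ protocol (v3.1). Per the labels, reads were processed with bcl2fastq, Cell Ranger 6.0.2 (GRCm38, mm10) and Seurat 4.0. The annotation release, the counting of introns and the use of strand are not given in the sources used here. The deposited tables hold raw UMI counts per gene and barcode. The lowest barcode total was 500 UMIs in each, so barcodes below this total had already been left out. Whether all empty droplets were among them cannot be told from the totals.

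Nuclei with over 2% mitochondrial UMIs or with fewer than 200 or more than 7500 genes were left out, as in the study. Symbols were taken for 32235 of 32285 rows from GENCODE M21, and rows without one held 0.00373% of sham and 0.0043% of injury UMIs. Doublets were not called. Nuclei that met the gates of several classes (1347 sham and 1743 injury) were left out of single classes, while those that met both relay sets were kept in relay nuclei of either set, which was added after seeing the data. Oligodendrocyte-like nuclei needed 4 UMIs of 6 markers. UMIs were summed per class and scaled to CPM. Intervals were Poisson for sums and Clopper-Pearson for shares and ratios (95%, Python 3.11.15, scipy 1.17.1). A count of 0 allows 3 UMIs. UMIs count molecules, and intervals cover counting error only. The ratio was tested on simulated data. Genes named from the wider list were the 2 highest and 2 lowest with an interval without 0 in each class. The genes, gene lists, gates and rules were chosen with earlier results of these data known. Trimmed-mean (TMM) factors came from edgeR 4.0.16 (R 4.3.3). Promoter windows came from RefSeq on GRCm38.p6, while gene positions are those of GENCODE M21.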

Additional observations from a re-analysis of the deposited data

Results flagged for a closer look

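Flrt3 differed in direction between classes that were compared in the same way: -0.18 in Adgrf5 relay, 0.27 in habenular and 0.28 in other GABAergic nuclei on the log2 scale, with intervals that each left out 0. The value in Adgrf5 relay nuclei was 0.03 after thinning to 2000 UMIs, while in relay nuclei of either set it was -0.10 and ranged from -0.17 to -0.06 over 8 alternatives. With 1 library per group this difference between classes was not tested. In nuclei that no comparison of the 5 neuron classes used, 4 values lay above 0 with their counting interval. Stmn4 stood at 31.6 CPM in the sham and 36.8 CPM in the injury library in other glutamatergic nuclei, a difference of 0.22. Ecel1 stood at 1.958 and 2.779 CPM in the same nuclei, a difference of 0.51, close to the level of oligodendrocyte-like nuclei. Flrt3 differed by 0.80 in cortex-like nuclei, a class of 85 sham and 286 injury nuclei whose markers differed between the libraries, as Slc17a6 stood at 290 and 79.1 CPM, Tcf7l2 at 604 and 170 CPM and Syt1 at 1236 and 2701 CPM. Gap43 differed by 0.94 in oligodendrocyte precursor-like nuclei, on 12 and 48 UMIs. The share of these nuclei with Gap43 was 20.8% for sham and 18.9% for injury, and the most UMIs in one nucleus were 2 and 9. In other glutamatergic, cortex-like and astrocyte-like nuclei there were also values below 0 with their interval. These were Sox11 at -0.24, Klf6 at -0.27 and Gap43 at -0.21 in other glutamatergic nuclei, Sox11 at -1.53, Gap43 at -1.32 and Stmn2 at -0.87 in cortex-like nuclei, where Ecel1 was also lower on 13 and 15 UMIs, and Gap43 at -1.32 in astrocyte-like nuclei.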

How the results depend on the processing

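With 1 library per group, nothing measures the spread between mice, and all differences may be those of 2 pools. Alternative medians of the genes numbered 48 (6 classes under 8 alternatives). Each was set against a band, the averaged counting limits of the gene or genes in the middle, which is not an interval of the median. Within this band 46 stayed. As the band was wide in some classes, such as -0.59 to 0.46 in habenular nuclei, staying within it says little. The others were -0.0391 in Adgrf5 relay nuclei thinned to 2000 UMIs and -0.17 in relay nuclei of either set without nuclei holding a glial UMI; the cause was not tested. Of 320 values of single genes, 291 stayed within their interval and 28 moved out of it. Of values whose interval left out 0, 1 changed sign: Flrt3 in Adgrf5 relay nuclei was 0.0271 after thinning. Values whose interval spanned 0 changed sign more often, such as Stmn4 in habenular nuclei, from 0.17 to -0.53 at the lowest. Over the 8 alternatives Sox11 in relay nuclei of either set ranged from -0.52 to -0.35, and Gap43 from -0.17 to -0.08. Thinning leaves few UMIs of low genes. All 64 shares of nuclei moved after thinning, as shares depend on depth. TMM factors kept all 6 counts of genes past 1.5-fold within 1.5 times. Counts followed the UMI minimum, since more or fewer genes enter. With at least 20 UMIs they were 1932 in relay nuclei of either set, 1600 in C6 relay, 1771 in Adgrf5 relay, 1542 in habenular, 1688 in reticular-like and 2471 in other GABAergic nuclei, and with at least 200 UMIs they were 408, 217, 276, 98, 181 and 515. No paired analysis was possible because sham and injury were 1 pooled library apiece. The alternatives without glial UMIs and with relay nuclei of either set were chosen after seeing the data.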
